A study of Arabidopsis thaliana with 12 samples.

Results

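The noa1-2 mutant of Arabidopsis carries a mutation in NITRIC OXIDE ASSOCIATED1 (NOA1), which encodes a plastid GTPase, and was compared here with the wild-type accession Col-0. The comparison took the 3 arrays labelled noa1-2 and the 3 labelled Col-0, which are 6 of the 12 arrays of the series. The other arrays hold nia1nia2, mutated in the genes of both nitrate reductases, and nia1nia2noa1-2, which combines the 3 mutations, with 3 arrays each. All seedlings were 15 days old, labelled as past the transition to flowering, and had grown on MS medium with 1% sucrose under 16 h of light and 8 h of dark. Whole seedlings were harvested 5 h after dawn, and each array is labelled as a separate biological replicate. The study used these mutants as plants with less nitric oxide. The noa1-2 mutation is a single allele of the gene.

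NOA1 belongs to a family of GTPases whose relative in Bacillus subtilis, YqeH, acts in the assembly of the small ribosomal subunit. Plastids keep a small genome that encodes part of their own RNA polymerase and ribosome and part of the photosynthetic complexes, while most plastid proteins, the remaining ribosomal proteins included, are encoded in the nucleus. Plastid genes are read by a polymerase of bacterial type, made from the rpo genes, and by nuclear-encoded polymerases of phage type, and their transcripts are then spliced, edited and trimmed by nuclear-encoded proteins.

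Values are log2 of the deposited array intensity. A gene was tested where the mean of either group reached 6, the level that the study's methods take as the border of noise, and 6789 of 13356 named genes did so. At the border, 4 genes had a higher group mean of exactly 6, and 3 genes at 5.9967 stayed out. A gene under 6 in a group has a measured signal there, but the size of its change is not exact. Arrays of a genotype correlated at 0.985 to 0.992 in Col-0 and at 0.986 to 0.994 in noa1-2, and the median SD of a gene over 3 arrays was 0.115 in Col-0, 0.107 in noa1-2, 0.114 in nia1nia2noa1-2 and 0.253 in nia1nia2. NOA1 itself has no probe set of its own in the gene table used here, so the mutated gene could not be checked. Genes of green tissue were high, LHCB4.2 of photosystem II at 13.4 and 13.0 in Col-0 and noa1-2. Of 7 root markers, 1 was named and it lay under 6, and of 9 floral markers none was named, so neither organ could be checked by these markers.

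In noa1-2, 855 genes (12.6% of those tested) were raised and 824 (12.1%) lowered at an adjusted p under 0.05 (limma, Benjamini-Hochberg over all genes tested). Most changes were small, with a median size of 0.47 among raised genes and 0.45 among lowered genes on the log2 scale, and 59 genes (0.869%) were raised and 66 (0.972%) lowered at least 2-fold. The 3 noa1-2 arrays lay above all 3 Col-0 arrays in 1354 genes (19.9%) and below them in 1456 (21.4%), and 837 and 799 of the called genes were among these. The median log2 fold change of all genes tested was -0.03. The counts fell to 492 raised and 361 lowered without noa1-2 replicate 2, and to 522 lowered without Col-0 replicate 3. With each array centred on its median, 1117 genes were raised and 587 lowered, which made rises 65.6% of the calls instead of 50.9%. Because whole seedlings were used, a change in the share of a cell type and a change in RNA per cell cannot be told apart.

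**Figure D1:**
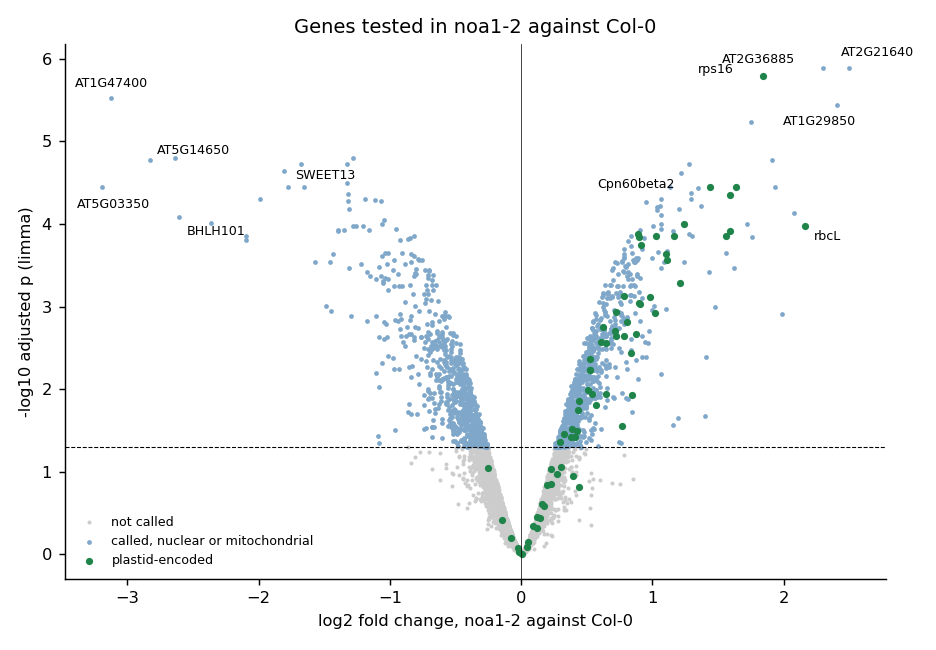
Each point is a gene tested in noa1-2 against Col-0 (3 arrays each), with the log2 fold change on the horizontal axis and -log10 of limma's adjusted p on the vertical axis. The dashed line marks an adjusted p of 0.05. Plastid-encoded genes (green) lie to the right of 0 with few exceptions and none of them is past the line on the left, while the largest falls are nuclear genes.

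The plastid-encoded genes rose as a group. All 69 that are named on the array were tested, and 48 were raised and 0 lowered, beside 12.6% and 12.1% of all genes. Their median log2 fold change was 0.57, beside -0.03 for all genes tested, and in 53 of them every noa1-2 array lay above every Col-0 array. The reverse order was seen only in psaJ. The number raised was 39 to 45 when an array was left out, 29 in a fit over all 12 arrays and 17 by the methods' t-test after Benjamini-Hochberg adjustment, and 0 were lowered under each of these settings or by that t-test without adjustment. The cDNA was primed with oligo(dT), so these values measure the copies primed in that way from plastid RNA, and the part of RNA ends in the result was not tested.

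The 4 genes of the plastid-encoded RNA polymerase rose together, with a median of 1.51, and all 4 remained raised with any array left out and by the methods' t-test after adjustment. The gene of the beta subunit, rpoB, was at 5.90, 6.36 and 6.09 in Col-0 and at 7.97, 7.69 and 7.60 in noa1-2. The groups stood apart, and the rise was 3.11-fold (log2 fold change 1.64, standard error 0.13, adjusted p = 3.5e-05). The values of rpoC2 were 7.60, 7.95 and 7.97 in Col-0 and 9.79, 9.39 and 9.10 in noa1-2, a rise of 1.59 on the log2 scale (standard error 0.16, adjusted p = 0.00012). The gene rpoC1 rose by 1.44 (standard error 0.12) and rpoA, of the alpha subunit, by 0.90 (standard error 0.10).

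Ribosomal protein genes of the plastid genome followed. Of 7 genes of the large subunit, 6 were raised, with a median of 1.21, and all 8 of the small subunit were raised, with a median of 0.68. Of all genes tested, 12.6% were raised. The small-subunit gene rps16 had clearly separate groups, 6.98, 7.10 and 7.09 in Col-0 against 8.88, 8.81 and 9.0 in noa1-2, a 3.58-fold rise (log2 fold change 1.84, standard error 0.09, adjusted p = 1.6e-06). Next to it, rps2 rose by 1.17 (standard error 0.12) and rps4 by 0.90 (standard error 0.13), and rps18 had the smallest rise, 0.38 (standard error 0.12, adjusted p = 0.037, lost in 4 of the 6 fits with an array left out). In the large subunit, rpl14 went from 9.39, 9.90 and 9.67 to 11.43, 11.10 and 11.19, and rpl16 from 8.76, 9.43 and 9.47 to 10.88, 10.75 and 10.72. Neither pair of groups overlapped, and the rises were 1.59 (standard error 0.14) and 1.56 (standard error 0.17). The exception was rpl32, at 0.16 (standard error 0.10, adjusted p = 0.25).

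The largest rise of a plastid gene was that of rbcL, the gene of Rubisco's large subunit. Its values were 8.12, 7.92 and 8.12 in Col-0 and 10.10, 9.72 and 10.82 in noa1-2, without overlap, a 4.47-fold rise (log2 fold change 2.16, standard error 0.22, adjusted p = 0.00011). Of the genes with other roles, accD of fatty acid synthesis rose by 0.91 (standard error 0.10), clpP of the Clp protease by 0.89 (standard error 0.09), matK, a maturase of intron splicing, by 0.52 (standard error 0.11) and cemA of the envelope by 1.02 (standard error 0.16). The gene ccsA, of cytochrome c synthesis, was at 0.22 (standard error 0.10, adjusted p = 0.14).

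The genes of the thylakoid complexes had smaller medians than those of the polymerase. Their counts stand beside 12.6% of all genes raised. All 6 ATP synthase genes were raised (median 0.59), from atpF at 0.91 (standard error 0.13) to atpE at 0.29 (standard error 0.09). Their count was 3 to 5 with an array left out, because atpB and atpE each lost their call in 5 of the 6 fits, and it fell to 3 without noa1-2 replicate 1. Of 6 genes of the cytochrome b6f complex, 5 were raised (median 0.72), petD among them, which went from 6.74, 6.93 and 6.51 to 7.74, 7.42 and 7.43. The groups did not overlap, and the rise was 0.80 (standard error 0.13, adjusted p = 0.0015). Of 7 genes of photosystem I and its assembly, 4 were raised (median 0.51). They were psaC, the iron-sulfur subunit, at 1.11 (standard error 0.13), the assembly factor genes ycf4 at 1.10 (standard error 0.13) and ycf3 at 0.98 (standard error 0.14), and psaI at 0.51 (standard error 0.12).

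The photosystem I reaction centre genes psaA and psaB did not pass the test. In psaB, Col-0 was at 12.51, 12.62 and 12.89 and noa1-2 at 12.68, 12.49 and 12.40, so the groups overlapped (log2 fold change -0.15, standard error 0.12, adjusted p = 0.38), and psaA was at 0.44 (standard error 0.21, adjusted p = 0.15). The value of psaJ was -0.25 (standard error 0.10, adjusted p = 0.09). Of 15 photosystem II genes, 5 were raised (median 0.27), beside 12.6% of all genes. They were psbC, psbD and psbB at 0.83 (standard error 0.16), 0.79 (standard error 0.13) and 0.78 (standard error 0.11), psbT at 0.52 and psbZ at 0.43. The D1 protein gene psbA was at 12.77, 12.35 and 12.76 in Col-0 and at 12.97, 12.92 and 12.90 in noa1-2. The groups stood apart, but the difference of 0.30 (standard error 0.12) had an adjusted p of 0.086. The genes of the small cytochrome b559 cluster, psbE, psbF, psbL and psbJ, lay between -0.08 and 0.12 and none passed. Of 10 genes of the NADH dehydrogenase-like complex, 5 were raised (median 0.31), beside the same 12.6%, with ndhF highest at 0.77 (standard error 0.22). The number raised in that complex was 1 to 3 with any array left out.

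**Figure D2:**
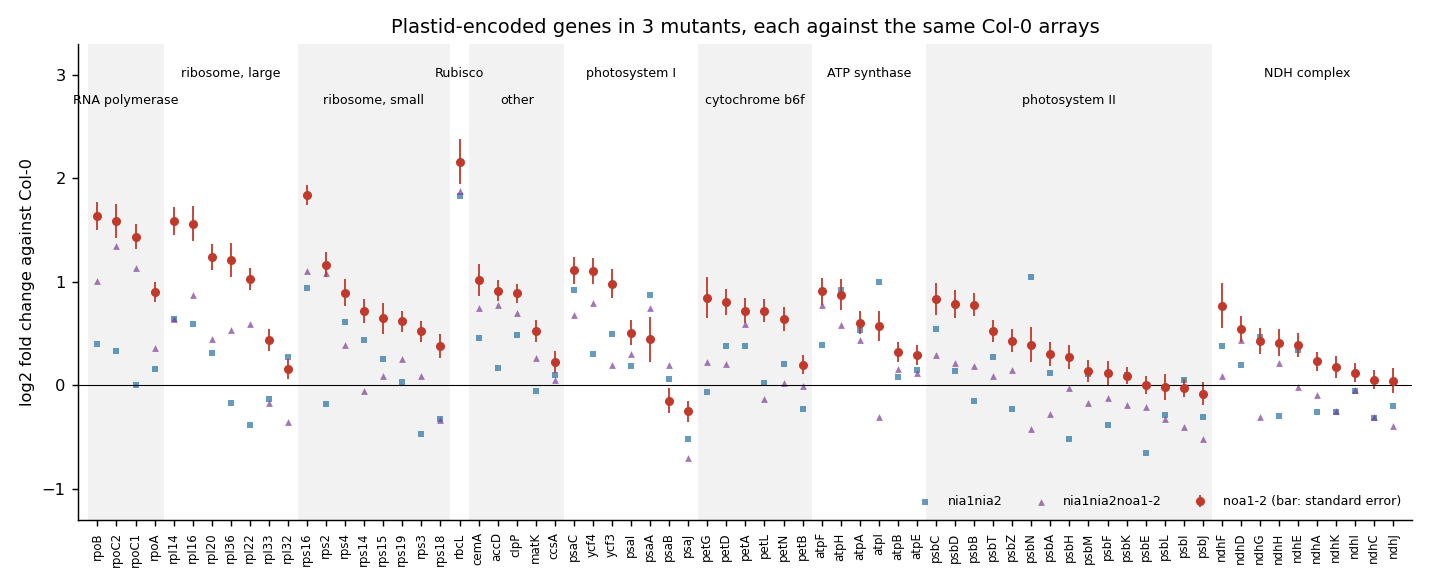
Log2 fold change against Col-0 of the 69 plastid-encoded genes, ordered by role and then by their value in noa1-2 (red, bars are standard errors from limma), with nia1nia2 (blue squares) and nia1nia2noa1-2 (purple triangles) beside it. The genes of the RNA polymerase and ribosome and rbcL are high in noa1-2, and the points decline through photosystem II and the NADH dehydrogenase-like (NDH) complex. All 3 mutants are set against the same 3 Col-0 arrays.

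The other mutants were set against the same Col-0 arrays, so their fold changes share that part with noa1-2. In nia1nia2, 11 of the 69 plastid genes were raised and 0 lowered (11.4% and 17.8% of all genes tested there), with a median of 0.15, and in nia1nia2noa1-2, 23 were raised and 7 lowered (17.6% and 19.3%), with a median of 0.18. Tested directly, 21 of the 69 were higher in noa1-2 than in nia1nia2 (18.5% of all genes) and 0 were lower (13%). Against nia1nia2noa1-2, 40 were higher in noa1-2 (17.2%) and psaB was lower (15.7%). All 7 large-subunit genes were higher in noa1-2 than in nia1nia2noa1-2, as were 6 of 8 small-subunit genes and 3 of 4 polymerase genes (17.2% of all genes). Fewer ribosomal genes were higher in noa1-2 than in nia1nia2, 3 of 7 of the large subunit and 4 of 8 of the small subunit. Of the polymerase genes 3 of 4 were higher there too (18.5% of all genes). For rpoB the nia1nia2 arrays were at 5.66, 6.36 and 7.54, overlapping Col-0, and the nia1nia2noa1-2 arrays were at 7.03, 7.11 and 7.23, between Col-0 and noa1-2. The difference from noa1-2 was 1.23 (standard error 0.40, adjusted p = 0.046) and 0.63 (standard error 0.11, adjusted p = 0.0021). For rbcL no such difference passed the test. Its log2 fold change was 1.83 in nia1nia2 and 1.88 in nia1nia2noa1-2, and the difference from noa1-2 was 0.33 (standard error 0.26, adjusted p = 0.37) and 0.28 (standard error 0.23, adjusted p = 0.39).

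Few nuclear genes of the plastid gene expression machinery are named on this array, and those that were called in noa1-2 were all raised, chaperones and proteases apart. Of 41 plastid ribosomal proteins listed, 10 were named and tested. All 10 had a positive log2 fold change, between 0.12 and 0.45 (median 0.28), 5 were raised (12.6% of all genes), and in 9 the noa1-2 arrays lay above the Col-0 arrays (19.9% of all genes). The clearest was AT4G17560, at 9.67, 9.65 and 9.66 in Col-0 and 10.06, 10.06 and 10.20 in noa1-2, a rise of 0.45 (standard error 0.09, adjusted p = 0.0049). The count of 5 was 1 to 3 with any array left out, 2 after re-applied quantile normalization 3 with the replicate number as a block, and 1 both in a fit over all 12 arrays and by the methods' t-test after adjustment, while AT4G17560 kept its call with any array left out. All 10 were higher in noa1-2 than in nia1nia2 (18.5% of all genes), where their median against Col-0 was -0.65. All 10 were also higher than in nia1nia2noa1-2 (17.2% of all genes), where it was -0.23. AT5G24490 was at 12.55, 12.33 and 12.34 in noa1-2, 12.24, 12.11 and 12.04 in Col-0, and 10.50, 10.46 and 10.76 in nia1nia2noa1-2. It was higher in noa1-2 than in nia1nia2noa1-2 by 1.83 (standard error 0.11, adjusted p = 2.9e-06) but did not pass the test against Col-0 (0.28, standard error 0.10, adjusted p = 0.067).

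Of 23 factors of plastid ribosome assembly and translation, 5 were tested and 3 were raised (12.6% of all genes), with a median of 0.47. RH39, a DEAD-box RNA helicase of plastid rRNA maturation, was at 7.28, 7.45 and 7.59 in Col-0 and 8.12, 8.21 and 8.31 in noa1-2. The groups were apart by more than their width, and the rise was 0.77 (standard error 0.11, adjusted p = 0.00057). AT5G66470 rose by 0.57 (standard error 0.10) and AT2G24060 by 0.47 (standard error 0.12, lost without noa1-2 replicate 1). FUG1, a plastid translation initiation factor, was at 0.13 (standard error 0.10, adjusted p = 0.36) and AT4G11175 at 0.29 (standard error 0.11, adjusted p = 0.066). All 5 were higher in noa1-2 than in nia1nia2 and than in nia1nia2noa1-2 (18.5% and 17.2% of all genes). The only tested gene of the 25 listed for nuclear-encoded plastid transcription, AT5G15700, overlapped between the groups (0.17, standard error 0.10).

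Genes were next added by symbol, after their values had been seen, for symbols that include genes of plastid RNA processing. They are given without a test of the group. Tested genes named OTP (organelle transcript processing) or CRR (chlororespiratory reduction) numbered 7. They include pentatricopeptide proteins of plastid RNA editing, but the symbols do not show that each acts in RNA processing. Of the 7, 6 were raised (12.6% of all genes), with a median of 0.71, and all 6 kept their call with any array left out. OTP81 was at 5.90, 6.03 and 6.28 in Col-0 and 7.35, 7.27 and 7.06 in noa1-2, a rise of 1.16 (standard error 0.12, adjusted p = 0.00012). OTP84 rose by 1.06 (standard error 0.13), CRR21 by 0.86 (standard error 0.12), CRR28 by 0.71, CRR41 by 0.69 and CRR22 by 0.48. CRR42 was the exception, at -0.08 (standard error 0.10, adjusted p = 0.62). All 7 were higher in noa1-2 than in nia1nia2 and than in nia1nia2noa1-2 (18.5% and 17.2% of all genes). CRR21, for example, was at 6.67, 6.47 and 6.43 in nia1nia2 against 8.67, 8.39 and 8.22 in noa1-2, a difference of 1.90 (standard error 0.16, adjusted p = 0.00019).

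The splicing factor genes CAF1, CFM3A and CFM3B, of the CRM domain family, rose by 0.85 (standard error 0.11), 0.72 (standard error 0.10) and 0.32 (standard error 0.10), and the call of CFM3B was lost in 4 of the 6 fits with an array left out. RAP, a protein of plastid rRNA maturation, was at 8.69, 8.55 and 8.76 in Col-0 and 9.58, 9.63 and 9.37 in noa1-2, a 1.82-fold rise (adjusted p = 0.00029). PAC, an RNA-binding protein needed for plastid development, rose from 7.86 to 8.45 (group means, adjusted p = 0.0033). Neither gene overlapped between the groups. Outside the plastid pathway proper, the 3 tRNAse Z genes tested, whose enzymes trim the ends of tRNA precursors in several compartments, rose by 0.57 (TRZ4), 0.54 (TRZ1) and 0.38 (TRZ3, lost without noa1-2 replicate 2).

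Among plastid chaperones and proteases, 3 of 7 tested genes were raised (1 without noa1-2 replicate 2) and 1 lowered (median 0.22), beside 12.6% and 12.1% of all genes. Cpn60beta2, a subunit of the plastid chaperonin, stood out at 10.11, 10.19 and 10.47 in Col-0 against 11.42, 11.63 and 11.60 in noa1-2. The groups were more than their width apart, and the rise was 2.45-fold (log2 fold change 1.29, standard error 0.11, adjusted p = 5e-05). It was lower in nia1nia2 than in Col-0 (log2 fold change -1.04), so noa1-2 was higher than nia1nia2 by 2.33 (standard error 0.29, adjusted p = 0.00094). In nia1nia2noa1-2 it was at 10.35, 10.44 and 10.49, within the range of Col-0 but for its highest array. Cpn60beta4 rose by 0.70 (standard error 0.09) and Cpn60beta3 was at 0.29 (standard error 0.12, adjusted p = 0.1). The call of AT1G68660, the lowered gene, was lost in 5 of the 6 fits with an array left out. SAPX, the stromal ascorbate peroxidase, named after its values were seen, rose from 8.22, 8.38 and 8.40 to 9.60, 9.56 and 9.68 (2.43-fold, log2 fold change 1.28, standard error 0.09, adjusted p = 1.9e-05).

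**Figure D3:**
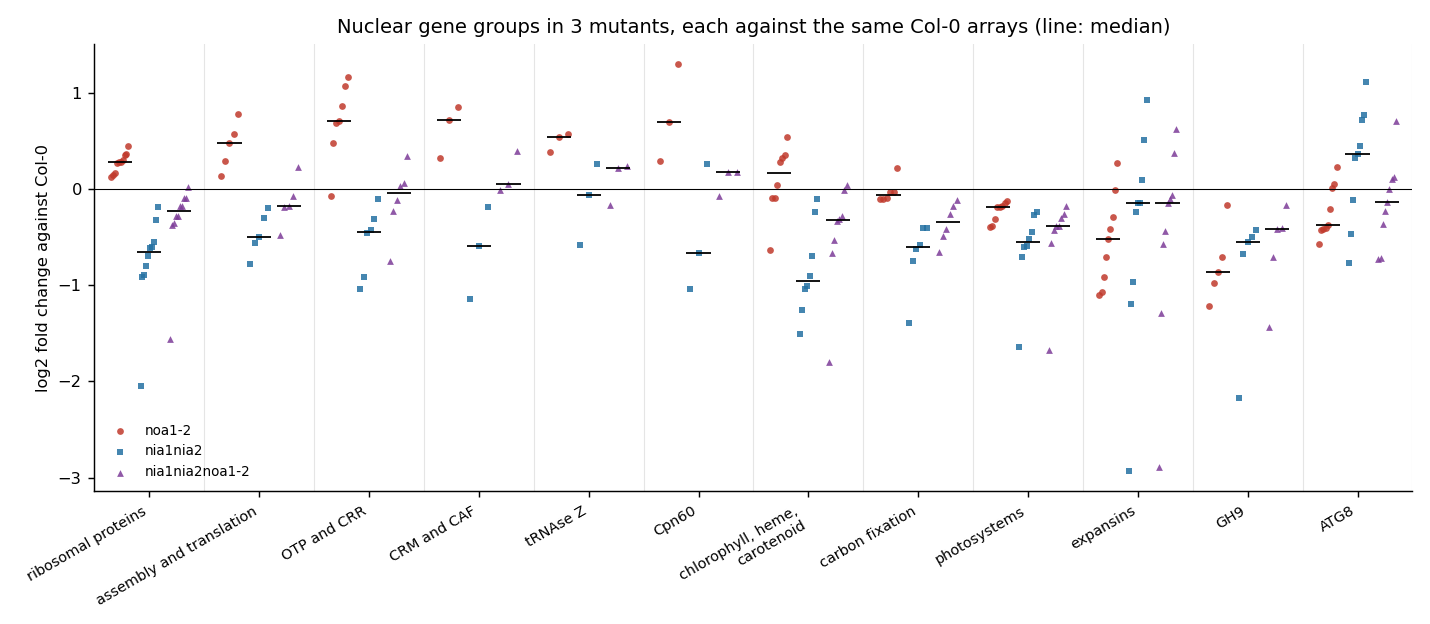
Log2 fold change against Col-0 of nuclear genes in 12 groups, for noa1-2 (red circles), nia1nia2 (blue squares) and nia1nia2noa1-2 (purple triangles), each point a gene and each line the median of the points. A gene not tested in a mutant has no point there. The groups of plastid gene expression and the OTP and CRR genes lie mostly above 0 in noa1-2 and mostly below or near it in the other mutants. The expansin and glycosyl hydrolase family 9 (GH9) points of noa1-2 lie mostly below 0, as do the GH9 points of the other mutants. All 3 mutants share the Col-0 arrays.

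None of the tested nuclear genes of the photosystems or of carbon fixation was raised. All 8 tested genes of the photosystems and light harvesting had a negative log2 fold change (median -0.18), 2 of them were lowered (12.1% of all genes), and in 7 the noa1-2 arrays lay below the Col-0 arrays (21.4% of all genes). In a fit over all 12 arrays 0 were lowered, and by the methods' t-test 1 was after adjustment and 6 without it. LHCB4.2, of the photosystem II antenna, was at 13.42, 13.37 and 13.44 in Col-0 and 13.04, 12.97 and 13.07 in noa1-2. The groups did not overlap, and it fell by 0.38 (standard error 0.09, adjusted p = 0.0096). PSBY fell by 0.40 (standard error 0.10, adjusted p = 0.014). Both calls were lost without noa1-2 replicate 2. None of 6 tested genes of carbon fixation and photorespiration passed, and RCA, Rubisco activase, was at 13.86 in Col-0 and 13.83 in noa1-2 (group means). The log2 fold changes of these nuclear genes in noa1-2 lay between -0.40 and 0.21. The 8 photosystem and light harvesting genes were also low in the other mutants. In nia1nia2, 4 were lowered (17.8% of all genes; median -0.555), and in nia1nia2noa1-2, 7 were (19.3%; median -0.387). Tested directly, 2 were higher in noa1-2 than in nia1nia2 (18.5% of all genes) and 1 higher than in nia1nia2noa1-2 (17.2%), and 0 were lower.

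In chlorophyll, heme and carotenoid synthesis, 3 of 8 tested genes were raised and 1 lowered (12.6% and 12.1% of all genes). HEMB1, an enzyme of an early step from aminolevulinate, went from 10.78, 10.68 and 10.42 to 11.08, 11.11 and 11.29, a rise of 0.53 (standard error 0.11, adjusted p = 0.0071). CHLI2, a subunit of magnesium chelatase, rose by 0.35 (lost in 3 of the 6 fits with an array left out) and HEMA2, a glutamyl-tRNA reductase, by 0.32 (lost in 5). The number raised fell to 1 without Col-0 replicate 1, noa1-2 replicate 1 or noa1-2 replicate 2. PORB, the light-dependent reductase of protochlorophyllide, went the other way, from 12.16, 12.52 and 12.41 to 11.77, 11.74 and 11.66. The groups were apart, and it fell by 0.64 (standard error 0.11, adjusted p = 0.0021). Its level was lower still in nia1nia2noa1-2, at 10.52, 10.51 and 10.66, and the difference from noa1-2 was 1.16 (standard error 0.09, adjusted p = 1.2e-05).

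Most tested genes of the response to iron deficiency were lower in noa1-2. Of 28 listed genes, 8 were named and 6 reached the floor, and 5 of these 6 were lowered (12.1% of all genes) and 0 raised. BHLH101, PYE and AT1G74770 reached the floor only through Col-0, the group where they were high, so only a fall could be seen in them and the count is a description. With a floor of 7, 3 genes were tested and 2 were lowered. In all 6 the noa1-2 arrays lay below the Col-0 arrays (21.4% of all genes), and the count of 5 did not change with any array left out. It was 2 by the methods' t-test after Benjamini-Hochberg adjustment. AT1G47400 had a large fall, from 9.49, 9.46 and 9.30 in Col-0 to 6.55, 6.51 and 5.81 in noa1-2, which is 8.73-fold lower (log2 fold change -3.13, standard error 0.17, adjusted p = 3e-06). BHLH101, a transcription factor induced by iron deficiency, was at 7.64, 6.62 and 6.58 in Col-0 and 4.41, 4.6 and 4.02 in noa1-2. It fell by 2.60 (standard error 0.25), to a level under 6. The regulator gene PYE (POPEYE) went from 6.59, 6.62 and 6.98 to 5.70, 5.97 and 5.80 and fell by 0.91 (standard error 0.12, adjusted p = 0.00056), and AT1G74770 fell by 1.18 (standard error 0.15), both also to means under 6. AT3G13610 (F6'H1), the feruloyl-CoA hydroxylase of coumarin synthesis, went from 7.29, 8.11 and 8.07 to 6.73, 6.49 and 7.07 and fell by 1.06 (standard error 0.21, adjusted p = 0.0049). AT3G07720 was at -0.20 (standard error 0.09, adjusted p = 0.15).

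The iron deficiency genes separated noa1-2 from the other mutants to different degrees. All 5 that could be tested were lower in noa1-2 than in nia1nia2 (13% of all genes), and 3 of 4 were lower than in nia1nia2noa1-2 (15.7%). A gene with a noa1-2 mean under 6, such as PYE or AT1G74770, could enter these tests only through the other mutant. Only a lower value in noa1-2 could be seen in such a gene, so the counts are a description. AT1G47400 stood at 10.20, 10.03 and 8.95 in nia1nia2 and at 9.06, 8.10 and 9.20 in nia1nia2noa1-2, and the log2 differences of noa1-2 from them were -3.44 (standard error 0.34, adjusted p = 0.00033) and -2.50 (standard error 0.28, adjusted p = 0.00013). AT3G13610 was raised against Col-0 in nia1nia2 (1.21) and lower in noa1-2 than there (log2 difference -2.27, standard error 0.21). BHLH101, by contrast, was low in all 3 mutants, with log2 fold changes of -2.60, -2.05 and -2.60 in noa1-2, nia1nia2 and nia1nia2noa1-2. LPR1, a multicopper oxidase named after its values were seen, was raised in noa1-2 from 5.61 to 6.19 (group means, standard error 0.09, adjusted p = 0.0017). None of the 10 listed genes of iron storage had a named probe set.

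Of 6 tested genes of the mitochondrial stress list, 2 were raised and 1 lowered in noa1-2, beside 12.6% and 12.1% of all genes. The other 4 of the 10 named genes stayed under the floor. Each called gene reached the floor only in the group where it was high, so its direction was set by the floor and the count is a description. AT2G21640 had the largest rise of all genes tested, from 5.79, 5.56 and 5.90 in Col-0 to 8.30, 8.09 and 8.34 in noa1-2 (5.63-fold, log2 fold change 2.49, standard error 0.11, adjusted p = 1.3e-06). Its levels in nia1nia2 (7.81, 8.23 and 8.31) and nia1nia2noa1-2 (8.10, 8.51 and 8.10) overlapped those of noa1-2. AT5G51440, of the small heat shock protein family, rose from 5.07, 5.13 and 4.98 to 6.18, 6.35 and 6.30 (log2 fold change 1.22, standard error 0.09). Both rises started from a Col-0 mean under 6. AT2G41380 went the other way, from 6.83, 6.89 and 6.84 to 5.89, 5.81 and 6.14, a mean under 6. It fell by 0.91 (standard error 0.10, adjusted p = 0.00023), whereas it rose by 3.69 in nia1nia2 and by 2.90 in nia1nia2noa1-2. NDB2, an alternative NADH dehydrogenase of mitochondria, was at -0.25 (standard error 0.14, adjusted p = 0.2) and GSTU25 at -0.03 (standard error 0.22). The remaining gene, AT5G09570, was at -0.21 and did not pass the test. In the direct comparisons 5 of the 6 were lower in noa1-2 than in nia1nia2 (13% of all genes) and 5 lower than in nia1nia2noa1-2 (15.7%), AT2G21640 being the exception in both. AT2G41380 entered these comparisons only through the other mutant, so only a lower value in noa1-2 could be seen in it. Of 16 mitochondrion-encoded genes, 4 were tested, and ccb382, of cytochrome c maturation, was raised by 0.61 (standard error 0.11, adjusted p = 0.0024, from a Col-0 mean under 6), while nad4, ccb452 and cox1 overlapped between the groups.

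Defence genes moved in both directions. AT5G03350, of the salicylic acid list, had the largest fall of all genes tested. It was at 9.78, 10.70 and 10.94 in Col-0 and at 7.49, 6.86 and 7.49 in noa1-2, which is 9.15-fold lower (log2 fold change -3.19, standard error 0.26, adjusted p = 3.5e-05). In nia1nia2 it was at 11.10, 11.02 and 10.28, beside Col-0, and in nia1nia2noa1-2 at 9.33, 7.41 and 9.02, where 1 array lay within the range of noa1-2. No other gene of that list was tested. The osmotin gene OSM34 fell from 10.16, 10.34 and 10.20 to 9.11, 8.90 and 8.72 (2.50-fold lower, adjusted p = 4.3e-05) and ChiC, a class V chitinase, from 8.05, 8.05 and 7.99 to 6.54, 6.99 and 6.94 (2.31-fold lower, adjusted p = 0.00011), both named after their values were seen.

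The plant defensin genes of the PDF1 family rose. PDF1.2, a marker of jasmonate and ethylene responses, went from 5.63, 5.35 and 5.74 to 7.15, 6.76 and 6.71, and PDF1.2b from 6.89, 6.99 and 7.16 to 8.31, 8.03 and 8.30. The groups were apart in both, and the rises were 2.46-fold (adjusted p = 0.00014) and 2.30-fold (adjusted p = 6.6e-05). PDF1.2 started under 6 and was tested only through noa1-2, so only a rise could be seen in it. PDF1.4 rose by 0.95 (standard error 0.17). PDF1.2b was at 5.39, 6.67 and 5.40 in nia1nia2 and at 5.21, 5.18 and 5.96 in nia1nia2noa1-2, below Col-0 in every array, so noa1-2 was higher by 2.39 (standard error 0.32, adjusted p = 0.0012) and 2.76 (standard error 0.19, adjusted p = 5.8e-06). ORA47, an ERF transcription factor of jasmonate responses, rose from 6.34, 7.12 and 7.44 to 9.46, 9.13 and 8.27 (log2 fold change 1.99, standard error 0.30, adjusted p = 0.0012). The lowest noa1-2 array stood above the highest Col-0 array, with a spread of over 1 in both groups. The thionin gene THI2.2 was called at 0.74 (adjusted p = 0.043), but its groups overlapped and the call was lost in 5 of the 6 fits with an array left out.

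**Figure D4:**
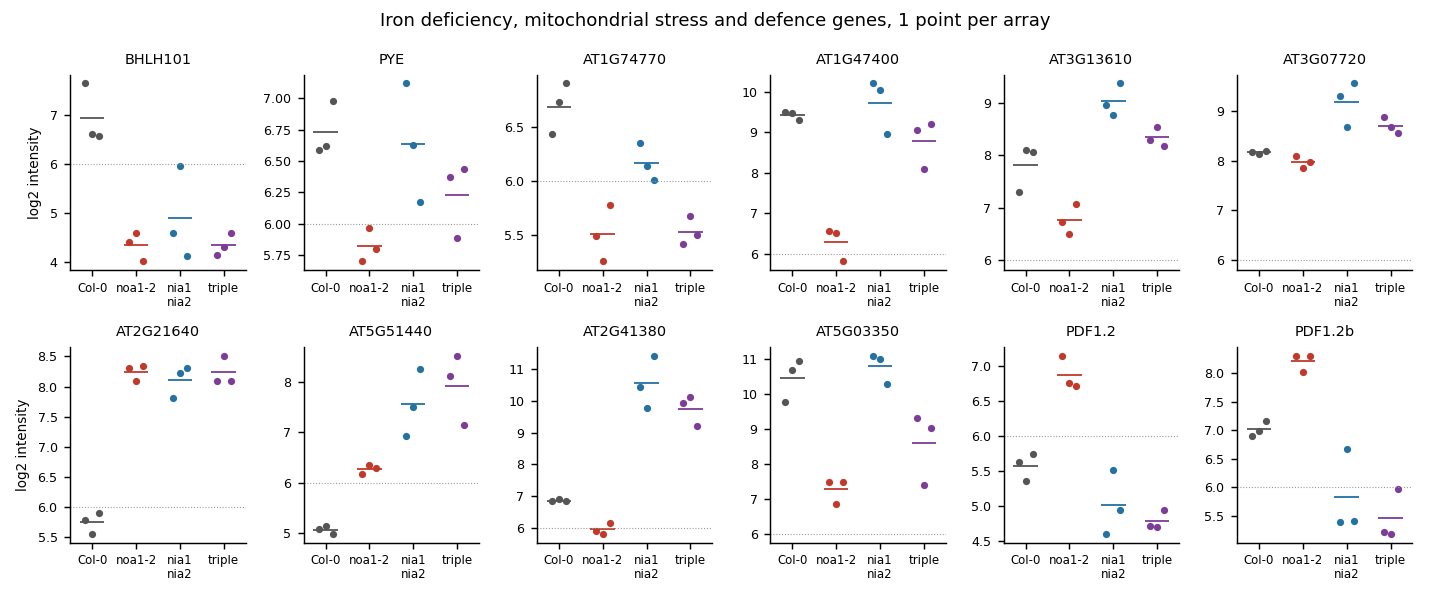
Log2 intensity of 12 genes, 1 point per array and a line at the mean of each genotype (3 arrays), with nia1nia2noa1-2 marked as triple and a dotted line at 6, the floor for testing. The 3 noa1-2 points lie below the Col-0 points for the 6 iron deficiency genes, AT2G41380 and AT5G03350 and above them for AT2G21640, AT5G51440, PDF1.2 and PDF1.2b.

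Genes of the cell wall were next described by symbol, also after their values had been seen. Of 9 expansin genes tested, whose products loosen cell walls, 7 were lowered (12.1% of all genes) and 0 raised (median -0.52), and the count fell to 4 without Col-0 replicate 2, noa1-2 replicate 1 or noa1-2 replicate 2. EXPA8 went from 10.65, 10.24 and 10.14 to 9.10, 9.15 and 9.47 and fell by 1.10 (standard error 0.14, adjusted p = 0.00046), and EXLB1 from 7.64, 7.94 and 8.21 to 6.78, 6.80 and 7.01, a fall of 2.09-fold (adjusted p = 0.00042). Neither overlapped between the groups. EXPA8 was lower again in nia1nia2noa1-2 (7.41, 7.16 and 7.79), by 1.79 from noa1-2 (standard error 0.16, adjusted p = 3.4e-05). EXLB1 overlapped Col-0 there (8.02, 7.25 and 8.09), and noa1-2 was lower by a log2 difference of -0.92 (standard error 0.19, adjusted p = 0.005). Among expansins, 1 of 8 was lower in noa1-2 than in nia1nia2 (13% of all genes) and 0 were higher. Against nia1nia2noa1-2, 2 of 7 were lower (15.7%) and 1 higher (17.2%). Against Col-0, 10 expansins were tested in each of these mutants. In nia1nia2, 3 were lowered and 2 raised (17.8% and 11.4% of all genes tested there). In nia1nia2noa1-2, 4 were lowered and 3 raised (19.3% and 17.6%). Of 5 genes of glycosyl hydrolase family 9, the family of plant endoglucanases, 4 were lowered (12.1% of all genes; median -0.87) and kept that call with any array left out. The family was also low in the other mutants, with 3 of 5 lowered in nia1nia2 (17.8% of all genes) and 4 of 5 in nia1nia2noa1-2 (19.3%). In the direct comparisons GH9B8 was lower in noa1-2 than in nia1nia2noa1-2 (-0.70), GH9B13 was higher than in nia1nia2 (0.96) and no other difference passed the test. GH9B13 went from 8.24, 8.54 and 8.81 to 7.10, 7.32 and 7.51 and fell by 1.22 (standard error 0.15, adjusted p = 0.00031). ATPMEPCRB, a pectin methylesterase, moved upwards, from 5.57, 5.50 and 6.08 to 7.78, 7.76 and 7.42 (3.83-fold, adjusted p = 3.5e-05, starting under 6).

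Sugar transport genes of the SWEET family changed unevenly, with 2 of 7 raised and 2 lowered (12.6% and 12.1% of all genes). SWEET13 was at 7.17, 7.06 and 7.59 in Col-0 and at 5.65, 5.56 and 5.27 in noa1-2, 3.43-fold lower (adjusted p = 3.5e-05) and under 6. It was tested only through Col-0, so only a fall could be seen in it and the count of lowered genes is a description. SWEET4 fell by 0.84 (standard error 0.14) from 7.08 to 6.24 (group means). Both were higher than Col-0 in nia1nia2, by 1.14 and 1.86. SWEET11 rose by 0.56 (standard error 0.11, adjusted p = 0.0041), and the call of SWEET16, the other raised gene, was lost in 5 of the 6 fits. Of the 9 ATG8 genes, which encode the ubiquitin-like protein of autophagosomes, 5 were lowered and 0 raised (median -0.37), beside 12.1% and 12.6% of all genes. The number lowered fell to 3 without Col-0 replicate 1 and to 2 without Col-0 replicate 2 or noa1-2 replicate 2. APG8A went from 8.31, 8.59 and 8.41 to 7.89, 7.74 and 7.97 and fell by 0.57 (standard error 0.11, adjusted p = 0.0034). In ATG8G, noa1-2 (6.57, 6.38 and 6.56) lay below nia1nia2 (7.49, 7.43 and 8.10) by a log2 difference of -1.17 (standard error 0.20, adjusted p = 0.0029).

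The remaining lists held few tested genes. Of 3 genes of anthocyanin synthesis, DFR, the dihydroflavonol reductase, was called lower (12.1% of all genes were). Its groups overlapped (6.86, 8.45 and 8.39 in Col-0, 6.57, 7.24 and 6.63 in noa1-2), and the call was lost in 5 of the 6 fits with an array left out. UF3GT and AT4G14090 also overlapped, with Col-0 replicate 1 the lowest of its group in all 3 genes. Without that array all 3 were lowered. Against the other mutants DFR did not overlap. It was at 11.49, 11.03 and 10.82 in nia1nia2 and 10.40, 9.85 and 10.64 in nia1nia2noa1-2, so noa1-2 was lower by log2 differences of -4.30 (standard error 0.23, adjusted p = 5e-05) and -3.48 (standard error 0.22, adjusted p = 3.6e-06). Of 4 cold-protection genes, LTI30 and COR47 were called lower (12.1% of all genes were), at -0.42 and -0.34, each lost in 4 of the 6 fits. Of 25 UGT genes, which encode glycosyltransferases, 6 were lowered and 0 raised (median -0.21), beside 12.1% and 12.6% of all genes. The number lowered was 2 without noa1-2 replicate 2. Against nia1nia2noa1-2, 14 were lower and 1 higher in noa1-2 (15.7% and 17.2% of all genes).

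Of 12 tested hypoxia response genes, 2 were raised and 3 lowered in noa1-2, with a median of -0.08. Of all genes tested, 12.6% were raised and 12.1% lowered. AT5G66985 went from 6.15, 6.27 and 6.40 to 5.36, 5.01 and 5.69 and fell by 0.92 (standard error 0.15, adjusted p = 0.0019). AT4G17670 went from 6.53, 6.52 and 6.59 to 5.85, 5.85 and 5.93, a fall of 0.67 (standard error 0.09). Both fell to means under 6 and reached the floor only through Col-0. Only a fall could be seen in them, so the count of lowered genes is a description. AT5G42200 rose by 0.51 (standard error 0.10, adjusted p = 0.0044). The groups of AT1G19530 and AT5G26200 overlapped, and their calls were lost in 3 and 4 of the 6 fits. PDC2, a pyruvate decarboxylase of fermentation, was at 10.00 in Col-0 and 9.96 in noa1-2 (group means). The other 6 genes, AT1G74940, AT4G27450, AT4G39675, AT3G03270, AT3G10020 and AT5G44730, overlapped between the groups, with log2 fold changes of 0.04, -0.41, -0.39, -0.12, 0.19 and 0.27, and none passed the test. From the list of genes that the study took as common to prt6, hypoxia and nia1nia2noa1-2, 4 genes were tested. That list was chosen partly on these arrays and gives no independent evidence of direction. AT5G20790 was raised from 5.97, 5.55 and 5.38 to 6.67, 7.21 and 7.31 (log2 fold change 1.43, standard error 0.18, from a mean under 6) and AT1G65500 from 7.49, 6.96 and 7.83 to 8.07, 8.84 and 8.56 (1.06, standard error 0.22), both without overlap. AT4G39675 and AT5G56350 overlapped between noa1-2 and Col-0.

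MAP1A, a methionine aminopeptidase and the only tested gene of the N-end rule list, was called at 0.31 (adjusted p = 0.028) and lost that call in 5 of the 6 fits. AT1G25550, of the nitrate response list, rose from 8.73, 8.77 and 8.76 to 9.53, 9.52 and 9.39 (log2 fold change 0.73, standard error 0.09, adjusted p = 0.0003). The clock gene GI, a daytime clock component, was at 9.41 and 9.40 (group means). Some genes of RNA polymerases and ribosome production outside the plastid also rose, and are named here after their values were seen. NRPC2, a subunit of RNA polymerase III, went from 6.08, 6.18 and 6.20 to 7.13, 6.89 and 6.97 (log2 fold change 0.84, standard error 0.10, adjusted p = 0.00023), NRPA2, of RNA polymerase I, rose by 0.62 (standard error 0.11), and IMP4, of the processing of ribosomal RNA, by 0.75 (standard error 0.11). Of 9 nuclear RNA polymerase genes tested, 4 were raised and 0 lowered (median 0.33), beside 12.6% and 12.1% of all genes. The number raised was 2 without any 1 of Col-0 replicates 1 and 2 and noa1-2 replicates 1 and 2. Against nia1nia2noa1-2, the differences of NRPC2, NRPA2 and IMP4 were 0.19, -0.19 and -0.21, and none passed the test.

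Several of the largest changes were in genes with no description in the sources used here. AT1G29850 was at 9.39, 9.36 and 9.48 in Col-0 and at 11.93, 12.05 and 11.47 in noa1-2, a 5.30-fold rise (log2 fold change 2.41, standard error 0.14, adjusted p = 3.6e-06). Its levels were 9.0, 10.26 and 9.94 in nia1nia2 and 9.41, 9.24 and 9.41 in nia1nia2noa1-2, so the other carrier of the noa1-2 mutation overlapped Col-0 (log2 fold change -0.06, adjusted p = 0.66) and noa1-2 was higher than that mutant by 2.46 (standard error 0.14, adjusted p = 2.2e-06). The opposite case was AT5G26270, at 7.44, 7.0 and 6.87 in Col-0, 9.08, 8.99 and 8.98 in noa1-2 and 8.75, 8.67 and 9.05 in nia1nia2noa1-2. It rose by 1.91 in noa1-2 (standard error 0.14, adjusted p = 1.7e-05) and by 1.72 in nia1nia2noa1-2, with -0.27 in nia1nia2. AT2G36885, annotated as chloroplast-located, rose from 6.61, 6.83 and 6.95 to 9.08, 9.0 and 9.21 (4.92-fold, adjusted p = 1.3e-06), and was at 8.60, 8.42 and 8.61 in nia1nia2noa1-2 and lower, at 7.16, 7.68 and 7.56, in nia1nia2.

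Among the falls, AT5G14650 went from 6.83, 7.16 and 7.75 to 4.32, 4.26 and 4.68, under 6, and fell by 2.83 (standard error 0.20, adjusted p = 1.7e-05). It was at 8.12, 7.76 and 6.76 in nia1nia2noa1-2, and noa1-2 was lower by a log2 difference of -3.13 (standard error 0.28, adjusted p = 3.7e-05). AT3G22240 moved in opposite directions, from 11.30, 11.79 and 12 in Col-0 to 9.69, 9.48 and 9.96 in noa1-2 (log2 fold change -1.99, standard error 0.17) and to 12.74, 12.78 and 13.20 in nia1nia2 (1.21). AT1G66100, in contrast, was lower in every mutant, by -2.64, -3.71 and -4.04 in noa1-2, nia1nia2 and nia1nia2noa1-2, with noa1-2 at 8.80, 9.04 and 9.28 against 12.13, 11.40 and 11.51 in Col-0. AT5G05250 fell from 8.86, 8.58 and 8.76 to 7.24, 7.10 and 6.82 (3.20-fold lower, adjusted p = 1.9e-05). The other large changes were rises of 2.08 for AT2G43620, 1.76 for AT1G52100, 1.72 for AT4G15680 and 1.62 for AT4G22470, and falls to -2.36 for AT1G19960, -2.10 for AT2G41090, -2.09 for AT1G20070 and -1.81 for AT2G19970, with an adjusted p of at most 0.00035 (limma).

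**Figure D5:**
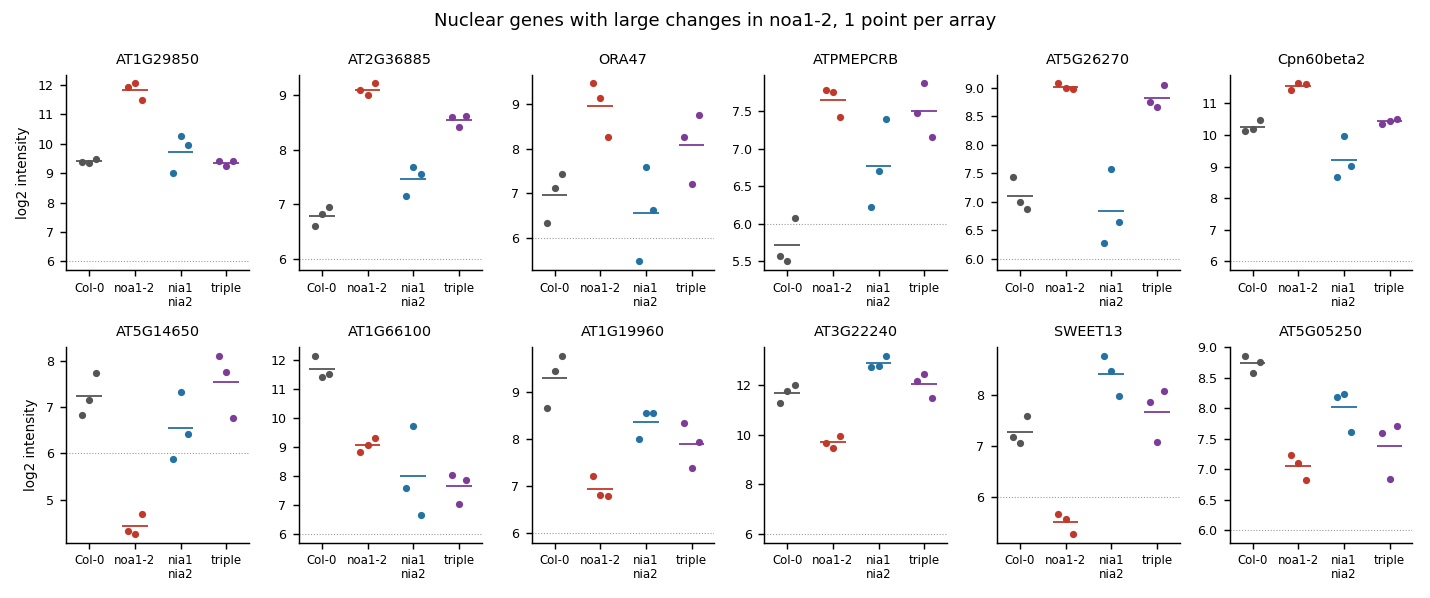
Log2 intensity of 12 nuclear genes with large changes in noa1-2, 1 point per array and a line at the mean of each genotype (3 arrays). The dotted line marks 6, the floor for testing, and triple stands for nia1nia2noa1-2. The upper row rose and the lower row fell in noa1-2 without overlap with Col-0. The other mutants follow noa1-2 in some genes (AT5G26270 in the triple mutant, AT1G66100 in both). They lie at or beyond Col-0 in others (AT3G22240, SWEET13, and AT1G29850 in the triple mutant). The nia1nia2 points of AT1G29850 spread from below Col-0 to above it.

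In all, 1267 genes (18.5% of 6861 tested) were higher in noa1-2 than in nia1nia2 and 892 (13%) lower. Against nia1nia2noa1-2, 1174 (17.2% of 6814) were higher and 1072 (15.7%) lower. The counts against nia1nia2 fell to 649 and 531 without noa1-2 replicate 1, to 654 and 509 without replicate 2 and to 765 higher without replicate 3. With arrays centred on their medians, 63.2% of the genes called against nia1nia2noa1-2 were higher in noa1-2, instead of 52.3%. Among genes called against Col-0, the largest differences from both mutants are given as a description, because they reuse the noa1-2 arrays. AT1G73120 was at 5.32, 5.10 and 5.56 in noa1-2 and between 9.72 and 11.23 in the 6 arrays of the other mutants, a log2 difference of -5.07 from nia1nia2 and of -4.59 from nia1nia2noa1-2, and AT2G41380 differed by -4.6 and -3.81. In the other direction, AT5G62360 was at 10.01, 9.97 and 9.89 in noa1-2, 8.85, 9.13 and 9.08 in Col-0, 5.77, 7.61 and 6.0 in nia1nia2 and 6.90, 7.27 and 7.25 in nia1nia2noa1-2, with no overlap between noa1-2 and any other genotype.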

How the data were processed

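Affymetrix ATH1 arrays of whole seedlings, 3 biological replicates per genotype, were used. Per the methods, the authors ran RMA from the affy package on the raw files, using a custom chip definition. Per the labels, RNA was amplified from oligo(dT)-primed cDNA and limma was used, with no version. The intensity values the authors deposited are linear, and every log2 of them has 2 decimals. Since their identifiers are Affymetrix probe sets, it stays unknown which definition made them, and background correction could not be repeated. Array number limits the precision, and p-values measure the spread between these arrays.

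The array has 22810 probe sets, 64 of them controls. The platform's gene table pairs 13513 with exactly 1 gene and 503 with more, and leaves 8730 unnamed. The last 2 kinds were left out of the main test, and many well-known genes are therefore missing. Of the named ones, 13436 matched the RefSeq gene table (TAIR10.1), used for symbols and for the plastid chromosome, which replaced the planned plastid locus names. Where a gene had several probe sets (146 genes), the one with the highest mean was used. The test was limma 3.58.1 (lmFit and eBayes, R 4.3.3) on the 6 arrays compared, with 4 residual degrees of freedom, over genes with a mean log2 of at least 6 in either group, with Benjamini-Hochberg adjustment and a threshold of 0.05. The same test set noa1-2 against each other mutant. Overlap means that the 3 arrays of a group did not all lie on one side of the 3 of the other. The script was tested on simulated data. Figures were made with matplotlib 3.10.9 in Python 3.11.15.

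The rule for named genes took the 15 largest rises and falls among called genes without overlap, all plastid-encoded genes, all tested members of the iron deficiency, mitochondrial stress, hypoxia and shared lists, up to 4 called members per direction of each other list, and the 5 largest differences per direction from each other mutant. All of these were computed, and the text gives those the results turn on by value and the others by count or range. The genes and 27 lists were chosen with earlier results of these data known, and 13 families defined by symbol and further single genes were named after values were seen. Alternatives were no floor, a floor of 7, the methods' t-test with and without adjustment, all 12 arrays in 1 fit, median centring, quantile normalization, the replicate number as a block, an intensity trend, the mean over probe sets, each array left out and, added after seeing the data, all probe sets other than controls. No array was a copy of another, as replicates had equal values in only 1.32% to 3.98% of probe sets.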

Additional observations from a re-analysis of the deposited data

How the results depend on the processing

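The counts of genes raised and lowered in noa1-2 against Col-0 (855 and 824) were 227 and 156 by the methods' t-test after Benjamini-Hochberg adjustment, 361 and 304 with limma over all 12 arrays, whose estimate of the spread includes the wider nia1nia2 arrays, and 1541 and 1592 over all 12804 probe sets past the floor (added after seeing the data). With 1 array left out they ranged from 492 to 762 and from 361 to 705. Against nia1nia2 (1267 higher, 892 lower) they were 676 and 495 by the t-test after adjustment and 2399 and 1841 over all probe sets, and ranged from 649 to 1756 and from 509 to 1052 with 1 array left out. Against nia1nia2noa1-2 (1174 and 1072) they were 659 and 626 by that t-test, 651 and 658 with all 12 arrays and 2191 and 2154 over all probe sets, and ranged from 835 to 1177 and from 766 to 1159. The other settings stayed within 1.5 times each count.

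The replicate number did not pair the samples, since same-numbered noa1-2 and Col-0 arrays deviated from their group means with correlations of -0.066, -0.093 and 0.0002. With the replicate block, 731 genes were raised and 696 lowered against Col-0, and 873 higher and 604 lower against nia1nia2. In the latter fit, noa1-2 replicate 1 and nia1nia2 replicate 4 had no partner of the same number and did not enter the difference. Against nia1nia2noa1-2, 1224 genes were higher and 1130 lower with the block. Of noa1-2 and nia1nia2noa1-2, every array correlated best with its own number (0.1121, 0.2261 and 0.0929), as a hint from the data. Among 298 named genes, 185 called, no alternative reversed a called direction, and the most calls were lost with the t-test after adjustment (118), all 12 arrays (79) and without noa1-2 replicate 2 (54), against 18 with the replicate block.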
